A study of Homo sapiens with 18 samples.

Results

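The genes described here are 9 genes of interest in multiple myeloma, the cancer of antibody-secreting plasma cells, called oncogenes below for short. They are NSD2, FGFR3 and LETM1 from the 4p16.3 region, the D-type cyclins CCND1, CCND2 and CCND3, and the transcription factors MAF, MYC and MYCN. LETM1 is counted with the oncogenes only for its position between FGFR3 and NSD2. All 9 were chosen by name, as genes that myeloma translocations bring under immunoglobulin control or that lie beside such breakpoints. Earlier results of these data were known when they were chosen, and they are 9 of the 62703 genes in the count tables. RNA-seq was analysed in 18 libraries from the human myeloma cell lines AMO1, H929 (NCI-H929) and LP1. Each line had 3 libraries labelled gN1E, a gapmer against the long non-coding RNA NEAT1, and 3 labelled SCR, the scrambled control gapmer. Gapmers are antisense oligonucleotides that recruit RNase H to cleave a matching RNA, and the cells took them up from the medium, with no transfection reagent, over 48 h. All 3 labels name established lines grown in culture, and whether they stand for 3 separate tumours was not tested. The total counts per library ranged from 28061606 to 69937229. The AMO1 libraries labelled gN1E had a median of 29663430 counts against 56549069 in those labelled SCR.

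In myeloma, a translocation often joins the immunoglobulin heavy chain locus to an oncogene, which the heavy chain enhancers then drive. Breaks at 4p16.3 place NSD2, a histone H3 lysine 36 methyltransferase, and the receptor tyrosine kinase FGFR3 under such control, other breaks reach a D-type cyclin or MAF, and most tumours express a D-type cyclin at a high level. MYC rearrangements are a frequent later event.

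NEAT1 (ENSG00000245532.11, chromosome 11, the target of the gapmer) went against the gapmer label in each line. In CPM (counts per 1e6 of the TMM-scaled library size), NEAT1 in AMO1 stood at 75.7, 78.7 and 90.8 in the libraries labelled SCR and at 473, 553 and 517 in those labelled gN1E. Under the H929 label, NEAT1 was at 79.8, 72.7 and 79.1 CPM with SCR and at 554, 464 and 542 CPM with gN1E. Under the LP1 label, it was at 135, 173 and 189 CPM with SCR and at 655, 667 and 828 CPM with gN1E. The libraries labelled gN1E were thus the NEAT1-high libraries throughout, with no overlap between the labels. The log2 difference of gN1E minus SCR was 2.66 in AMO1 (standard error, SE, 0.0744), 2.74 under H929 (SE 0.0683) and 2.14 under LP1 (SE 0.19), with adjusted p = 5.1e-13, 3.11e-14 and 0.0269 by the quasi-likelihood F test of edgeR, Benjamini-Hochberg adjusted. The NEAT1 call under LP1 was lost in that edgeR test when SCR B was left out (log2 difference 2.17, adjusted p = 0.176), and likewise for gN1E A (2.20, 0.111), gN1E B (2.19, 0.0886) and gN1E D (2.01, 0.0578), with a range of 3.69e-26 to 0.176 over its alternatives. Inside the count tables, the names have SCR and gN1E swapped, and LP1 and H929 as well. Every library therefore stands under its sample label here, and every difference is given as gN1E minus SCR, that is, NEAT1-high minus NEAT1-low.

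The line labels were set against what is known of the lines. NCI-H929 and LP-1 are both textbook carriers of the 4p16.3 translocation to the heavy chain locus, so for that translocation the exchanged names do not alter what either label would carry. Under the exchanged names, however, every level given here for H929 or LP1 would belong to the other line. High NSD2 and FGFR3 were measured only in the 6 libraries labelled LP1 of the 18. The 6 libraries labelled H929 shared the immunoglobulin segment IGHV3-23 with AMO1, at a mean of 1550 CPM against 1756 CPM, while the 6 labelled LP1 held 0 counts of it, for which counting error allows up to 3. They also shared IGKV3D-20, at 656 CPM against 724 CPM in AMO1 and 0.01 CPM under LP1, and whether the H929-labelled and AMO1 libraries are of related cells was not tested. The levels of the H929-labelled libraries thus go against that label, although the supplier of the 3 lines had verified their identity by DNA typing, and results for them are given by label. All 9 plasma cell markers (SDC1, TNFRSF17, XBP1, PRDM1, IRF4, MZB1, JCHAIN, CD38 and SLAMF7) reached a mean of 1 CPM or more under each line label. Where a level differs between bulk libraries, fewer cells expressing a gene and less RNA per cell cannot be told apart.

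All positions are on hg38. NSD2 (ENSG00000109685.19, chromosome 4, 1871393 to 1982207) encodes the methyltransferase named above. In AMO1, NSD2 stood at 169, 165 and 168 CPM in the libraries labelled SCR (A, C and D) and at 210, 201 and 198 CPM in those labelled gN1E. Under the H929 label, it stood at 216, 217 and 214 CPM with SCR (A, B and C) and at 252, 267 and 255 CPM with gN1E. Under the LP1 label, it stood at 1561, 1603 and 1547 CPM with SCR (A, B and D) and at 1630, 1656 and 1705 CPM with gN1E. The lowest LP1-labelled library was far above the highest of the other 12, and within every line label the gN1E libraries lay above the SCR libraries with no overlap. Of all genes, the groups of 17.7% in AMO1, 21.7% under H929 and 18.1% under LP1 did not overlap in either direction. Under LP1, the NSD2 difference between gapmer labels was not called. Mean NSD2 over a line label was 185 ± 20.1 CPM in AMO1, 237 ± 23.8 under H929 and 1617 ± 59.3 under LP1 (SD, n = 6 each). The level under LP1 was 8.74 times that of AMO1 and 6.83 times that under H929, with log2 differences of 3.13 (SE 0.034) and, for H929 minus LP1, -2.78 (SE 0.0334). H929-labelled libraries exceeded AMO1 by 0.36 (SE 0.0316) on the log2 scale, a difference smaller than that of 42.6% of the 26436 genes tested.

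FGFR3 (ENSG00000068078.20, chromosome 4, 1793293 to 1808872) gave the widest separation in 4p16.3. In AMO1, it had 10, 5 and 9 counts in the libraries labelled SCR and 11, 4 and 1 in those labelled gN1E. Under the H929 label, FGFR3 had 83, 68 and 46 counts with SCR and 82, 66 and 92 with gN1E, or 1.35 ± 0.109 CPM (SD, n = 6). Under the LP1 label, it stood at 705, 715 and 617 CPM with SCR and at 722, 720 and 724 CPM with gN1E. FGFR3 was therefore high in the 6 libraries labelled LP1, low in the 6 labelled H929 and near the detection limit in the 6 of AMO1. The LP1-labelled mean of 701 ± 41.3 CPM was 518 times the H929-labelled mean. On the log2 scale, LP1 exceeded AMO1 by 12.29 (SE 0.0914), and H929 exceeded AMO1 by 3.29 (SE 0.169). The FGFR3 order was LP1, H929 and AMO1, and the ranges of the 3 line labels did not overlap.

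The promoters of NSD2 and FGFR3 are shown because the 2 genes were high together under the LP1 label, and that of MAF because MAF, described further on, was also highest there. The sequences are 300 bases around each gene start from RefSeq, build GRCh38.p14, printed 5′ to 3′ on the strand of the gene: chr4:1871143-1871442 (+), chr4:1793043-1793342 (+) and chr16:79600688-79600987 (-). Capitals mark the GC box GGGCGG and the TATA box TATAAA on either strand, and the E-box CACGTG was also searched.
NSD2: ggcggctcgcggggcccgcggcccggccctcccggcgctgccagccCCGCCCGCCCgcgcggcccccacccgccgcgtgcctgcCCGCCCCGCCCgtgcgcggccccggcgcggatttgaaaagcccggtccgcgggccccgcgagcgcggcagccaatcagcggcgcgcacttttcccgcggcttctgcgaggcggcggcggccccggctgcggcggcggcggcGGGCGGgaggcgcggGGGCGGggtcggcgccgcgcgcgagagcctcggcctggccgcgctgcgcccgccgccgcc
FGFR3: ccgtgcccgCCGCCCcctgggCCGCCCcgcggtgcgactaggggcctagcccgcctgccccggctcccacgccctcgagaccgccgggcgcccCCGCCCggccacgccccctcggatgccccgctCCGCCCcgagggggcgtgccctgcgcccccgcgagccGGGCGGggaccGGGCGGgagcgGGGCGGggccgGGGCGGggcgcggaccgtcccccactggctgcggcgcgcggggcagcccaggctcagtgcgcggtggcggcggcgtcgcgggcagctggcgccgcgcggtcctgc
MAF: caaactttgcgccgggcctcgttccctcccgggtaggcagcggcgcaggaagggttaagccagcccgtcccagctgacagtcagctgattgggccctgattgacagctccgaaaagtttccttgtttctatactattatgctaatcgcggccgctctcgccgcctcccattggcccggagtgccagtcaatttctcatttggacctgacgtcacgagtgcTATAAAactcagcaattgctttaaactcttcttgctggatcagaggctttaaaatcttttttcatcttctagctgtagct
Of the 9 oncogenes, 5 matched an entry of that RefSeq table, and CCND1, CCND2, LETM1 and MYC did not. NSD2 held 6 GC boxes and FGFR3 held 8, with 86.7% and 86.3% G or C bases, against a median of 58.7% over 35097 promoters of that length. MAF held no GC box and 1 TATA box in 51.7% G or C bases. A GC box occurred in 44.9% of those promoters, a TATA box in 11.5% and an E-box in 7.25%, and none of the 3 printed promoters held an E-box. The motif counts describe letters only and say nothing of binding.

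LETM1 (ENSG00000168924.15, chromosome 4, 1811479 to 1856156), a mitochondrial inner membrane ion transport protein encoded between FGFR3 and NSD2, did not follow them. LETM1 in AMO1 was at 72.2, 67.3 and 70.0 CPM with SCR and at 74.1, 64.1 and 68.6 CPM with gN1E. Under H929, LETM1 was at 110.1, 119.0 and 113 CPM with SCR and at 119.1, 127 and 125 CPM with gN1E. Under LP1, LETM1 was at 96.9, 94.5 and 92.8 CPM with SCR and at 105, 99.8 and 95.8 CPM with gN1E. Its order was H929, LP1 and AMO1, and no library of a line label reached into the range of the next. The LETM1 level differed from AMO1 by 0.77 (SE 0.0384) under H929 and by 0.49 (SE 0.0384) under LP1 on the log2 scale. Of the 26436 genes tested, 19.0% had a larger difference for H929 minus AMO1 and 67.2% for LP1 minus AMO1. For H929 minus LP1, 77.6% had a larger one.

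Around NSD2, 12 genes within 500 kb of its start had a mean of 1 CPM or more over the 18 libraries. For LP1 minus AMO1, 11 of the 12 were higher and 1 was lower, with a median log2 difference of 0.87 against -0.02 over all genes. Of all genes tested, 75.9% were called in that comparison, 10023 higher and 10031 lower. Of the 12, FGFR3 and POLN were under 1 CPM in AMO1, and POLN under H929 as well, so that LP1 brought them in. With at least 1 CPM required under each line label, a filter chosen after the values were seen, 9 of 10 were higher and 1 lower, with a median of 0.70. After FGFR3 and NSD2, the largest differences upward were those of POLN (2.13) and TMEM129 (1.75), while NAT8L was lower (-3.02). Other genes on the same strand share 49.3% of the exon bases of POLN. H929 minus AMO1 compares with the same AMO1 libraries, and there 10 of the 12 were higher and 0 lower, with a median of 0.42 against 0.00 over all genes, of which 44.4% were called. FGFR3 alone of the 12 had a log2 difference above 1 in that comparison, and without FGFR3 and POLN 9 of 10 were higher.

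**Figure D1:**
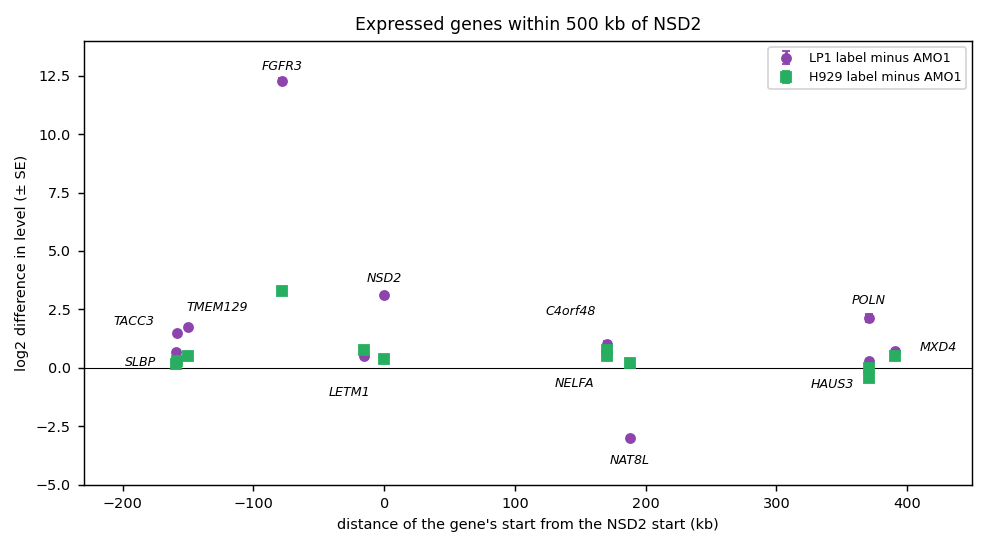
Log2 difference in level (± SE, often smaller than the symbol) between line labels for the 12 expressed genes within 500 kb of NSD2, against the distance of their start from the NSD2 start in kb. FGFR3 (12.29) and NSD2 (3.13) stand apart for LP1 minus AMO1, while LETM1, which lies between them, is at 0.49.

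CCND1 (ENSG00000110092.4, chromosome 11, 69641156 to 69654474) encodes cyclin D1, which with CDK4 or CDK6 phosphorylates RB and opens the G1 phase. In AMO1, CCND1 was at 36.6, 34.1 and 34.1 CPM with SCR and at 39.0, 36.1 and 37.4 CPM with gN1E. Under H929, CCND1 was at 24.6, 22.2 and 24.3 CPM with SCR and at 25.9, 27.6 and 29.1 CPM with gN1E. Under LP1, CCND1 was at 198, 193 and 176 CPM with SCR and at 177, 181 and 179 CPM with gN1E. CCND1 was highest under LP1, at 5.08 times the AMO1 mean and 7.18 times the H929-labelled mean. The log2 difference from AMO1 was 2.35 (SE 0.0413) under LP1 and -0.50 (SE 0.0415) under H929, and the 3 ranges did not overlap.

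CCND2 (ENSG00000118971.9, chromosome 12, 4269771 to 4305353), the gene of cyclin D2, was lowest where CCND1 was highest. AMO1 libraries had 1700, 1833 and 1804 CPM of CCND2 with SCR and 1902, 1813 and 1894 CPM with gN1E. H929-labelled libraries had 1532, 1588 and 1664 CPM of CCND2 with SCR and 1545, 1686 and 1626 CPM with gN1E. LP1-labelled libraries had 1.35, 1.66 and 1.41 CPM of CCND2 with SCR and 1.85, 2.02 and 1.24 CPM with gN1E. CCND2 was thus high in the 12 libraries labelled AMO1 or H929 and near 0 in the 6 labelled LP1. The AMO1 mean was 1149 times the LP1-labelled mean, and the H929-labelled mean was 1012 times it. AMO1 exceeded H929 by a little, with H929 minus AMO1 at -0.18 (SE 0.0431) on the log2 scale. Of the exon bases of CCND2, 12.5% are shared on the same strand with another annotated gene, ENSG00000285901, so part of its reads may not have been counted to it.

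CCND3 (ENSG00000112576.13, chromosome 6, 41934934 to 42050357), the gene of cyclin D3, was nearly level between AMO1 and H929 and somewhat higher under LP1. The lowest LP1-labelled library (53.7 CPM) lay above the highest of AMO1 (50.3 CPM) and of H929 (49.5 CPM). H929 minus LP1 was -0.32 on the log2 scale. Over its alternatives it ran from -0.41 to -0.12, with an adjusted p of at most 0.00759 in edgeR, voom or DESeq2. Its mean was 47.3 ± 2.40 CPM in AMO1, 45.6 ± 2.86 under H929 and 56.7 ± 2.63 under LP1 (SD, n = 6 each). AMO1 and H929 did not differ beyond their spread, with a CCND3 log2 difference of -0.06 (95% interval -0.14 to 0.03). LP1 minus AMO1 for CCND3 was 0.26 (SE 0.0418), but with library size as the only scaling it was 0.08 and no longer called (adjusted p = 0.0879, range over its alternatives 1.68e-11 to 0.0879, the quasi-likelihood F test of edgeR, Benjamini-Hochberg adjusted). That scaling moved the median of all genes in LP1 minus AMO1 from -0.02 to -0.20.

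Between the cyclins, levels were compared as TPM, which divide each count by gene length and scale every library to the same total. Summed over the 3 D-type cyclins, the level was 769 ± 42.4 TPM in AMO1, 678 ± 49.3 TPM under H929 and 132 ± 9.28 TPM under LP1 (SD, n = 6 each). CCND2 made up 93.5% of the summed TPM in AMO1 and 93.8% under H929. Under LP1, CCND1 made up 79.4%, CCND3 20.2% and CCND2 0.409% of the summed TPM. Each line label thus had a leading D-type cyclin, CCND2 in AMO1 and H929 and CCND1 in LP1. By TPM, CCND2 ranked 134 of 62703 genes in AMO1 and 147 under H929, while CCND1 ranked 1147 under LP1.

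**Figure D2:**
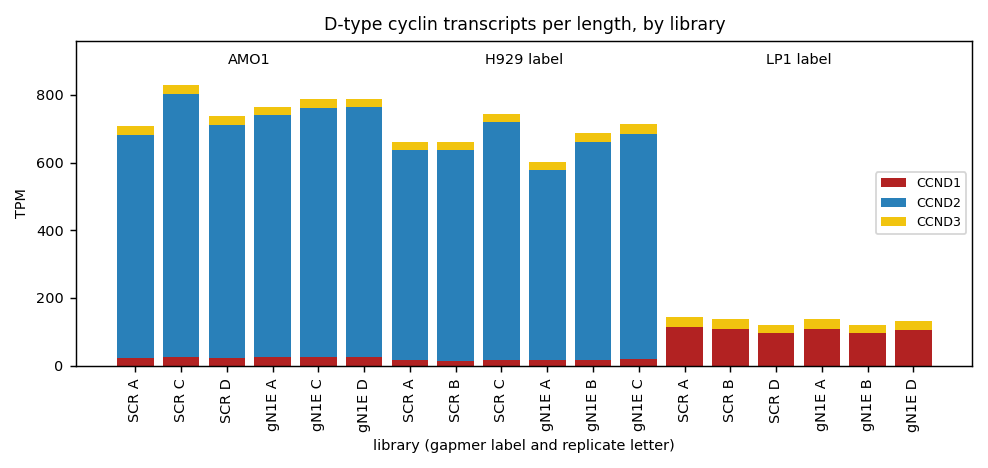
Stacked TPM of CCND1, CCND2 and CCND3 in each of the 18 libraries, with no error bars because each bar is a single library. CCND2 fills most of each bar in AMO1 and under H929 (means 93.5% and 93.8%), and CCND1 most of each bar under LP1 (79.4%).

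MAF (ENSG00000178573.7, chromosome 16, 79585843 to 79600737) encodes the basic leucine zipper factor c-MAF. AMO1 libraries held 10, 1 and 2 MAF counts with SCR and 1, 0 and 0 with gN1E. Under H929, MAF was at 38.9, 33.2 and 33.1 CPM with SCR and at 28.7, 28.7 and 32.7 CPM with gN1E. Under LP1, MAF was at 233, 239 and 225 CPM with SCR and at 182, 203 and 209 CPM with gN1E. MAF was highest under LP1, intermediate under H929 and almost absent from AMO1, and the 3 ranges did not overlap. The LP1-labelled mean was 6.61 times the H929-labelled mean, with a log2 difference of -2.72 (SE 0.0659) for H929 minus LP1. Against the 14 MAF counts of AMO1, the ratio of summed counts, each over its total, was 4013 for LP1 (95% exact interval 2392 to 7341) and 689 for H929 (411 to 1261). Of the 14 counts, 10 were in AMO1 SCR A, and without that library, left out after the values were seen, the ratios were 11244 (4391 to 41268) and 1931 (754 to 7088). Such intervals cover counting error only.

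MYC (ENSG00000136997.22, chromosome 8, 127735434 to 127742951), a transcription factor of growth genes, was high under all 3 line labels. AMO1 libraries had 924, 768 and 817 CPM of MYC with SCR and 973, 833 and 854 CPM with gN1E. H929-labelled libraries had 875, 911 and 824 CPM of MYC with SCR and 1104, 1108 and 1057 CPM with gN1E. LP1-labelled libraries had 588, 588 and 549 CPM of MYC with SCR and 569, 570.1 and 590 CPM with gN1E. MYC was lower in every LP1-labelled library than in any other, and the AMO1 and H929 ranges overlapped. The log2 difference was -0.58 (SE 0.0422) for LP1 minus AMO1 and 0.76 (SE 0.0423) for H929 minus LP1. H929 minus AMO1 was 0.18 (SE 0.042), and with the SCR-labelled libraries only it was 0.06 and not called (adjusted p = 0.515, range over its alternatives 3.35e-05 to 0.515, the quasi-likelihood F test of edgeR, Benjamini-Hochberg adjusted).

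MYCN (ENSG00000134323.13, chromosome 2, 15940550 to 15947007), the MYC paralogue of neural tissue, was detected above trace level under the H929 label alone of the 3. There it was at 6.39, 7.15 and 6.63 CPM with SCR and at 5.74, 7.26 and 5.88 CPM with gN1E. The 6 AMO1 libraries held 1 MYCN count in all, and the 6 LP1-labelled libraries held 34. The H929-labelled mean of 6.51 CPM was 60.1 times that under LP1. Against the 1 count of AMO1, the ratio of summed counts, each over its total, was 1916, with a 95% exact interval of 344 to 75721. That count was in AMO1 SCR C, and without this library, left out after the values were seen, AMO1 held 0 and the H929-labelled level was at least 489.7-fold higher, taking a floor of 3 counts over the group. In TPM, MYCN at 7.46 was far below MYC at 505 in the same H929-labelled libraries.

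Ranked by mean TPM within a line label, the 9 oncogenes differed in their leaders. In AMO1 the order began with CCND2 (719 TPM) and MYC (443 TPM), followed by NSD2 (28.6 TPM). Under H929 it began with CCND2 (636 TPM) and MYC (505 TPM), followed by LETM1 (46.3 TPM) and NSD2 (36.7 TPM). Under LP1 it began with FGFR3 (392 TPM), MYC (256 TPM) and NSD2 (215 TPM), followed by CCND1 (105 TPM) and MAF (83.2 TPM). AMO1 and H929 thus shared their first pair, and LP1 shared MYC with both.

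**Figure D3:**
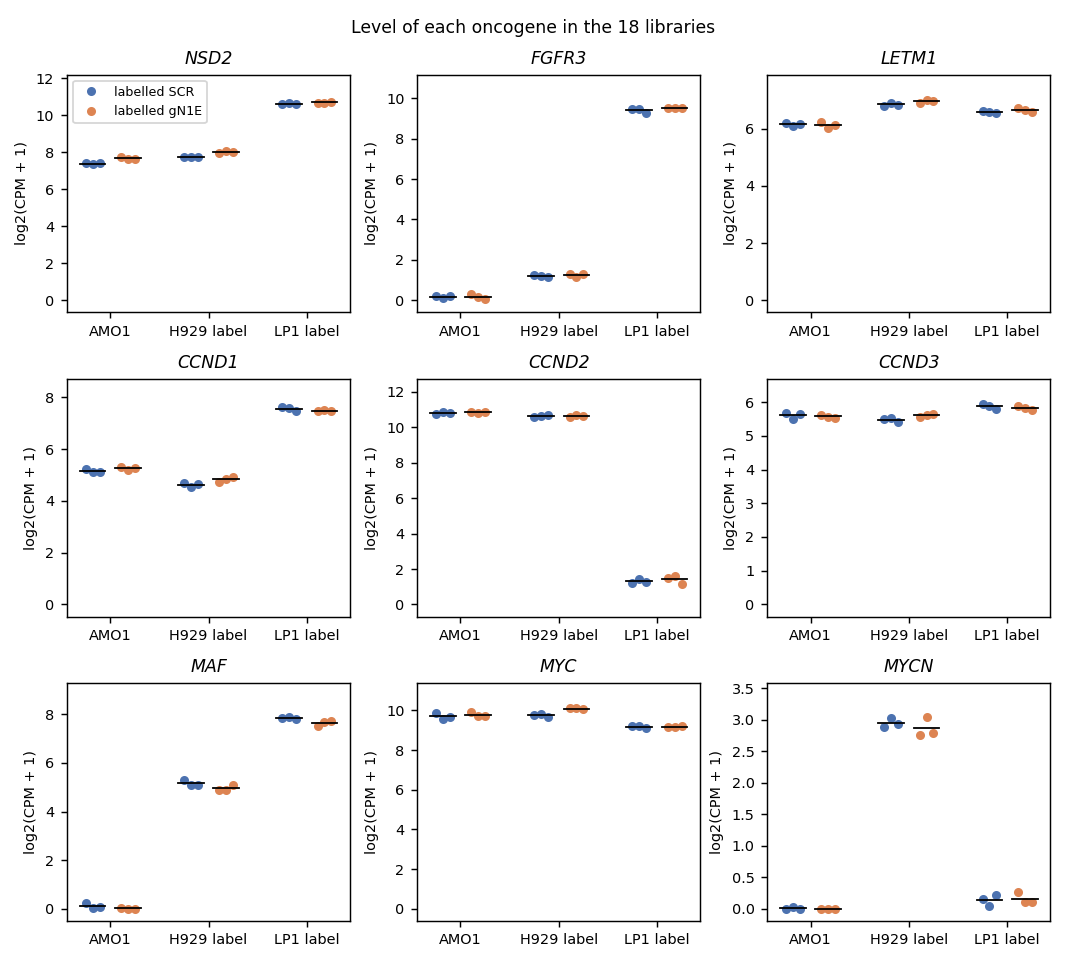
Level of each oncogene in every library as log2(CPM + 1), with 1 point per library, a bar at the mean of each group of 3, and colours for the gapmer label (NEAT1 is high in gN1E). NSD2, FGFR3, CCND1 and MAF are highest under LP1, CCND2 is near 0 there, and MYCN is raised under H929.

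Counted together, 8 of 9 oncogenes differed in level between H929 and AMO1 at an adjusted p under 0.05, 6 higher and 2 lower, where 44.4% of all genes did. Between LP1 and AMO1, all 9 of 9 differed, 7 higher and 2 lower, where 75.9% of all genes did. Between H929 and LP1, all 9 of 9 differed, 4 higher and 5 lower, where 74.6% of all genes did. The calls are from the quasi-likelihood F test of edgeR, Benjamini-Hochberg adjusted over 26436 genes, and the comparisons share libraries of a line. Shares of called genes this high mean that a call by itself sets no oncogene apart. No share over all genes is given for ranges of line labels that did not overlap, so that lack of overlap sets none apart either. By size, the LP1 minus AMO1 differences of MAF and FGFR3 were exceeded by 0.386% and 0.541% of all genes, while that of NSD2 was exceeded by 15.5%. For H929 minus AMO1, those of MYCN and MAF were exceeded by 0.276% and 0.329%. Those ranks rest on 40 counts of FGFR3, 14 of MAF and 1 of MYCN in AMO1. The 9 genes were chosen with earlier results of these data known, so their calls and ranks are not independent support. Over the alternatives, the log2 difference for H929 minus AMO1 ran from 8.97 to 11.35 for MYCN and from 8.92 to 11.35 for MAF. For LP1 minus AMO1, it ran from 11.64 to 14.07 for MAF and from 12.11 to 12.69 for FGFR3. With the adjusted p under 0.1 and a fold of 1.5, 4 of 9 oncogenes and 5065 genes were past the threshold for H929 minus AMO1, against 11731 genes.

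The second question was whether the oncogenes moved with NEAT1 within a line label. In AMO1, 6 of the 9 oncogenes had a mean of 1 CPM or more, FGFR3, MAF and MYCN being left out, and 1 of the 6, NSD2, was called at an adjusted p under 0.05 by edgeR's quasi-likelihood test, where 2.06% of 22933 genes were. NSD2 was higher in the libraries labelled gN1E, the NEAT1-high ones, by 0.28 on the log2 scale (SE 0.0519, adjusted p = 0.00298, the quasi-likelihood F test of edgeR, Benjamini-Hochberg adjusted), or by 21.7%. NSD2 is among the target genes that the study selected in AMO1, so this difference is not independent evidence. NSD2 was also the single oncogene of the 6 whose groups did not overlap, where 17.7% of all genes did not. MYC (0.09), CCND1 (0.10) and CCND2 (0.07) were above 0, and CCND3 (-0.04) and LETM1 (-0.01) near it, none past the threshold. The median log2 difference of the 6 was 0.08, against -0.02 over all genes. With the replicate letter as a block, the number of genes called in AMO1 went from 473 to 1394, and NSD2 was still the only oncogene called. The number was 261 without SCR D, 288 without gN1E C and 254 without gN1E D, and NSD2 was called in each of these fits.

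Under the H929 label, 3 of 9 oncogenes were called, where 5.47% of 23499 genes were. MYC rose with NEAT1 by 0.31 on the log2 scale (SE 0.0506, adjusted p = 0.000124 by the quasi-likelihood F test of edgeR, Benjamini-Hochberg adjusted), or by 24.1%. NSD2 rose by 0.25 (SE 0.0456, adjusted p = 0.000733 in the same edgeR test), or by 18.6%. MAF fell by 0.24 on the log2 scale (SE 0.0696, adjusted p = 0.048 in the same edgeR test). The gN1E libraries lay wholly above the SCR libraries for 5 oncogenes (NSD2, MYC, CCND1, CCND3 and LETM1) and wholly below for MAF, where the groups of 21.7% of all genes did not overlap. The call of MAF was lost without SCR A (adjusted p = 0.329), without gN1E A (0.15) and without gN1E B (0.251), and over its alternatives the adjusted p ran from 0.00616 to 0.329 in edgeR, voom or DESeq2. It was also lost with limma-voom (adjusted p = 0.0875), with a filter of 10 reads in 3 libraries (0.0549 in edgeR) and in the joint fit (0.24 in edgeR). The replicate letter as a block ended the MAF call as well (adjusted p = 0.0907 in edgeR). CCND1 missed the threshold at 0.20 (SE 0.0645, adjusted p = 0.0677 in edgeR) and passed it without gN1E A (adjusted p = 0.0456), with no filter (0.0366) and in the joint fit (0.0319), all in edgeR, with a range of 0.0319 to 0.261 over its alternatives. The number of all genes called went from 1286 to 709 without SCR A and to 701 without gN1E B, with 2 oncogenes called in each. The median of the 9 was 0.10, against -0.01 over all genes.

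Under the LP1 label, 0 of the 8 oncogenes with a mean of 1 CPM or more (all but MYCN) were called by edgeR's quasi-likelihood test, where 1.43% of 23165 genes were. At an unadjusted p under 0.05 there were 4 of the 8 and 3018 genes, limma-voom called 0 oncogenes, and DESeq2 called 1, MAF (adjusted p = 0.0199). MAF was lower with NEAT1 high by -0.21 (SE 0.0527, adjusted p = 0.0507 by the quasi-likelihood F test of edgeR, Benjamini-Hochberg adjusted), with every gN1E library below every SCR library. Without SCR D its adjusted p was 0.0294 and without gN1E D it was 0.0287, and over its alternatives it ran from 0.00355 to 0.287. NSD2 was at 0.10 (SE 0.046, adjusted p = 0.324 in the same edgeR test) and FGFR3 at 0.11 (SE 0.0514, adjusted p = 0.362), and for both the gN1E libraries lay above the SCR libraries. These 3 were the oncogenes with no overlap, 2 above and 1 below, where the groups of 18.1% of all genes did not overlap. MYC differed by 0.02 (95% interval -0.07 to 0.12) and CCND1 by -0.06 (-0.15 to 0.04). The count of all genes called, 332, was 123 without SCR A, 87 without SCR B and 780 without SCR D, and, with gN1E A, B or D left out, it was 143, 176 or 202. DESeq2 called 512.

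**Figure D4:**
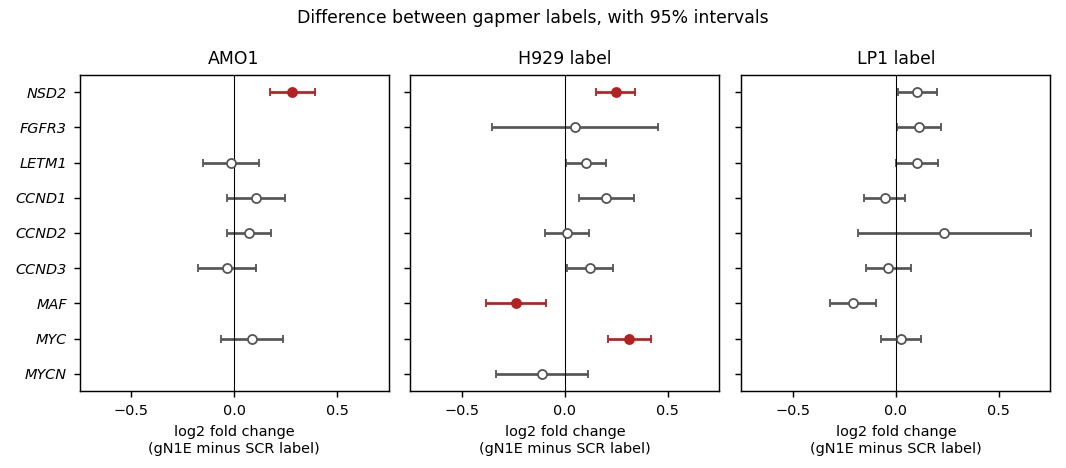
Log2 difference of gN1E minus SCR (NEAT1-high minus NEAT1-low) with its 95% interval for each oncogene with a mean of at least 1 CPM under that line label. Filled red points are past the threshold: NSD2 in AMO1 (0.28), and NSD2 (0.25), MYC (0.31) and MAF (-0.24) under H929.

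No oncogene reached a 1.5-fold difference between gapmer labels in a line with at least 1 CPM of it. FGFR3, MAF and MYCN in AMO1 and MYCN under LP1 fell below that level and are given as counts, with no fold. Between 3 libraries and 3, an exact two-sided permutation test cannot give a p under 0.1, so no single-gene permutation test could pass. CCND2 under H929 (0.01) turned to -0.04 when library size was the only scaling. CCND3 under H929 was at 0.12 (adjusted p = 0.228 by the quasi-likelihood F test of edgeR, Benjamini-Hochberg adjusted) and LETM1 at 0.10 (adjusted p = 0.252 in edgeR). FGFR3 under H929 was at 0.05 (95% interval -0.35 to 0.45) and MYCN at -0.11 (-0.33 to 0.11).

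Differences between lines in these responses were tested as interactions, with all 18 libraries fitted together, and the 3 comparisons share libraries. Only oncogenes with a mean of 1 CPM or more under both line labels were counted, which left out MYCN in each comparison, and FGFR3 and MAF in those with AMO1. For AMO1 minus LP1, 0 of 6 oncogenes were called by edgeR, where 0.741% of all genes were, with 2 of the 6 and 2820 genes at an unadjusted p under 0.05, and 1 oncogene by voom and 1 by DESeq2. That oncogene was NSD2, whose response was larger in AMO1 by 0.20 (SE 0.0628, adjusted p = 0.173 by the quasi-likelihood F test of edgeR, Benjamini-Hochberg adjusted, 0.0439 by voom and 0.00656 by DESeq2, with a range of 0.00656 to 0.543 over its alternatives). For H929 minus LP1, NSD2 differed by 0.18 (SE 0.0626, adjusted p = 0.261 by edgeR). For H929 minus LP1, 0 of 8 were called by edgeR, where 0.874% of all genes were, with 4 of the 8 and 2664 genes at an unadjusted p under 0.05, 0 oncogenes by voom and 2 by DESeq2. MYC differed there by 0.32 (SE 0.0841, adjusted p = 0.0613 by edgeR, 0.0488 by DESeq2, range over its alternatives 0.00264 to 0.269). MYC passed the edgeR threshold without AMO1 SCR A (0.0246), AMO1 SCR C (0.0389), AMO1 gN1E A (0.0453), H929 SCR B (0.0468) or LP1 SCR D (0.0352). With the replicate letter as a block, MYC also passed it, at 0.32 (adjusted p = 0.00264 by edgeR). CCND1 differed by 0.29 (SE 0.0803, adjusted p = 0.0849 by edgeR, 0.0477 by DESeq2 and 0.0279 by edgeR without LP1 SCR D, range 0.0279 to 0.447). For AMO1 minus H929, 0 of 6 were called by edgeR, where 0.0% of all genes were, with 2 of the 6 and 1771 genes at an unadjusted p under 0.05, 0 genes by voom and 5 genes by DESeq2. Without AMO1 SCR C edgeR called 5 genes there, and without AMO1 gN1E A it called 5. The number of genes called for AMO1 minus LP1, 196, was 122 without AMO1 SCR D, and for H929 minus LP1, 231, it was 153 without H929 SCR A, 140.0 without H929 gN1E B and 151 without LP1 SCR A. NSD2 was at 0.02 (95% interval -0.11 to 0.15) for AMO1 minus H929 and MAF at 0.01 (-0.26 to 0.27) for H929 minus LP1, the latter turning to -0.01 with DESeq2 and -0.10 with library size only.

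The genes whose pattern over the 18 libraries was most like that of an oncogene were found by Pearson's r of log2(CPM + 1) among 15429 genes. The points fall in 3 line labels, so r mostly describes the line means, and no p is given. NSD2 was closest to STON2 (r = 0.999), ERGIC1 and SETBP1 (0.998 each). FGFR3 was closest to SLC47A1, EVC and MILR1, of which EVC was at 118 CPM under LP1, 0.655 under H929 and 0.00898 in AMO1. CCND1 was closest to HIP1, SEMA4A and MYEOV, the last of which neighbours CCND1 on chromosome 11. CCND2 was closest to the immunoglobulin segment IGKV3D-20 (724 CPM in AMO1, 656 under H929 and 0.01 under LP1), WDR35 and NLRP2. MAF was closest to LRP12, MID1IP1 and SMAD1, and MYCN to SFRP1, FBP1 and NDN. MYC was closest to RPTOR, CMIP and KMT2D, LETM1 to ABCA3, NTRK3 and TTLL12, and CCND3 to SDR39U1, PNPLA6 and MZB1. With each library taken as its deviation from its line mean, NSD2 was closest to APLP2 (r = 0.980), SFSWAP (0.980) and SEMA4D (0.978).

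The partners of these oncogenes were followed in lists. Of 13 other FGF receptors and FGFR feedback genes, 5 were higher and 8 lower in LP1 than in AMO1, where 75.9% of all genes were called, with a median of -0.28 against -0.02 over all genes. DUSP6, a phosphatase that FGFR and RAS signalling induce, was at 132 ± 14.5 CPM under LP1, 34.2 ± 1.34 in AMO1 and 25.4 ± 1.94 under H929 (SD, n = 6 each). ETV4, a transcription factor of the same pathway, was lower under LP1 than in AMO1 by -0.47 (SE 0.0435). Of 8 other MAF family and MAF target genes, 4 were higher and 2 lower in LP1 than in AMO1, a share of calls near the 75.9% of all genes, with a median of 2.44 against -0.02. Of that list, the MAF targets ITGB7, an adhesion integrin, and CCR1, a chemokine receptor, were highest under LP1, as was MAF. CCND2, which is not in that list, went the other way, at a mean of 1.59 CPM under LP1 against 1824 CPM in AMO1. Whether any of these levels follow MAF was not tested. ITGB7 was at 5139 ± 397 CPM under LP1, 236 ± 18.6 under H929 and 155 ± 15.6 in AMO1, and CCR1 was at 411 ± 14.6, 1.74 ± 0.198 and 0.771 ± 0.245 CPM. Of 19 cyclin D partners, inhibitors and RB or E2F genes, 8 were higher and 8 lower in LP1 than in AMO1, also against 75.9% of all genes called. Of the 2 cyclin D kinases, CDK6 was at 361 ± 21.8 CPM in AMO1, 668 ± 32.7 under H929 and 1007 ± 37.2 under LP1. CDK4 was lowest under LP1, at 116 ± 7.33 CPM against 176 ± 6.84 in AMO1 and 165 ± 12.3 under H929. Of 8 other H3K36 methyltransferases and demethylases, 3 were higher and 3 lower in LP1 than in AMO1. For 9 MYC partners and antagonists it was 6 and 2, and for 10 textbook MYC targets 3 and 2, beside 75.9% of all genes called. Single-gene levels of these lists are not printed, a choice made after ASH1L and FBL changed direction with library size as the only scaling.

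Against the gapmer labels, the 7 lists of partner genes (MXD4 stands in a pair of them) gave 12 calls of 77 under H929, 5 of 77 under LP1 and 0 of 74 in AMO1 by edgeR, where 5.47%, 1.43% and 2.06% of all genes were called. In AMO1, 13 list genes had an unadjusted p under 0.05, limma-voom called 0 and DESeq2 called 3. The 0 of 74 comes from the fit without the replicate letter as a block, and no blocked count of the lists is given. That block took the calls among all genes in AMO1 from 473 to 1394. Under H929, limma-voom called 8 and DESeq2 12, and under LP1 they called 3 and 8. Under H929, with NEAT1 high, 4 of 19 cyclin D partners were higher, E2F2 (0.17), CDK2 (0.22), E2F4 (0.16) and CCNE1 (0.20), and 1 was lower, the CDK4 and CDK6 inhibitor CDKN2B, by -0.62 (adjusted p = 7.64e-05 by the quasi-likelihood F test of edgeR, Benjamini-Hochberg adjusted). Of all genes under H929, 5.47% were called, 870 higher and 416 lower, and the list median was 0.03 against -0.01 over all genes. Of 8 other H3K36 methyltransferases and demethylases, NSD1 (0.16) and KDM2B (0.17) were higher, and of 10 textbook MYC targets, TERT (0.24) was higher and LDHA lower (-0.24). TACC3 beside NSD2 was higher (0.19), as was ETV5 (0.21), while DUSP6 was lower (-0.21). The plasma cell markers SDC1 (0.22) and CD38 (-0.21) moved in opposite directions. Of these 14 calls, 11 were lost without SCR A, 10 without gN1E B, 6 each without SCR B, SCR C or gN1E C, and 5 without gN1E A. CDKN2B, TERT and CD38 were called in each of these 6 fits, and DUSP6 in none of them. Over all 15 alternatives, CDKN2B kept its call in each, and TERT and CD38 lost theirs in 1 each. E2F4 and KDM2B lost theirs in 10 each, and DUSP6 in 9.

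Under LP1, with NEAT1 high, 5 list genes were lower and 0 higher: C4orf48 (-0.58) of 4p16.3, the MYC antagonist MXD3 (-0.26), the CDK inhibitor CDKN1A (-0.25), and the feedback regulators DUSP6 (-0.26) and SPRED1 (-0.31). Of the 5 calls, 4 were lost without SCR B, 3 each without SCR A, gN1E A, gN1E B or gN1E D, and 0 without SCR D. SPRED1 was called in each of the 6 fits. Of the MAF family and target genes tested, 6 in AMO1 and 8 under each of H929 and LP1, edgeR, limma-voom and DESeq2 called 0 under each line label, with 1, 2 and 1 at an unadjusted p under 0.05 in AMO1, H929 and LP1, and list medians of -0.13, -0.10 and -0.09. In the test of the difference between lines, edgeR called 2 of 77 list genes for H929 minus LP1, ETV5 and CDKN1A, where 0.874% of all genes were called. It called 0 for AMO1 minus LP1 and 0 for AMO1 minus H929, against 0.741% and 0.0% of all genes, with 11 and 9 at an unadjusted p under 0.05, where limma-voom called 0 and 0 and DESeq2 called 1 and 0.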

How the data were processed

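RNA-seq libraries were analysed from total RNA of 3 cell lines, 6 libraries per line. The counts are as the authors deposited them, not normalized: reads were aligned to hg38 by STAR 2.7.10a, and featureCounts 1.6.4 assigned stranded read pairs to the exons of GENCODE 43 genes. Total counts ran from 28061606 to 69937229 per library. Nothing in the labels says that libraries came from separate cultures, so p-values measure the spread between libraries, which may be technical.

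CPM used TMM-scaled library sizes, TPM the deposited gene lengths. Tests were edgeR 4.0.16 quasi-likelihood fits (TMM, robust, Benjamini-Hochberg adjustment over all genes tested, threshold 0.05) in R 4.3.3 after dropping genes that reached 10 reads in no library. Responses were fitted within a line label, levels and interactions in a joint fit of 18 libraries. The code was checked on simulated counts. Alternatives were limma-voom (limma 3.58.1), DESeq2 1.42.0, RLE factors, library size only, no filter, at least 10 reads in 3 libraries, the replicate letter as a block, a joint fit, libraries of either gapmer label only, an adjusted p under 0.1 with a fold of 1.5, and leaving out each library. Further steps ran in Python 3.11.15 (pandas 2.3.3, numpy 2.4.6, matplotlib 3.10.9, scipy 1.17.1).

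In AMO1, deviations from the group means correlated at 0.263, 0.232 and 0.147 between SCR and gN1E libraries with the same replicate letter (A, C and D), and at -0.374 to 0.131 between those with different letters, so the letters may mark pairs. Each pair of libraries in a group differed beyond counting noise (chi-square per degree of freedom from 6.25 to 39.8).

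The members and lists were chosen with earlier results of these data known. Named are the 9 members, list genes past the threshold in a line, otherwise at most 4 genes per list with the highest TPM, and the 3 genes most alike. Genes named outside that rule are IGHV3-23, the 4p16.3 genes POLN and NAT8L, and genes of the marker lists, chosen after their values were seen. MXD4 is also named, for standing in a pair of lists. The rule that a difference between gapmer labels is given only at a mean of 1 CPM or more was also set after values were seen.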

Additional observations from a re-analysis of the deposited data

Results flagged for a closer look

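A difference between the lines in the response to the gapmer label, past the threshold in the test of the difference itself, was found for 2 of 77 genes in the partner lists, ETV5 and CDKN1A, and for 1 of 9 plasma cell markers, CD38. All 3 were for H929 minus LP1, where 0.874% of all genes were called (NEAT1 is high in gN1E). ETV5 differed by 0.33 on the log2 scale (adjusted p = 0.0217 by the quasi-likelihood F test of edgeR, Benjamini-Hochberg adjusted, range over its alternatives 0.00284 to 0.245), at 0.21 under H929 and -0.08 under LP1. CDKN1A differed by 0.34 (adjusted p = 0.0401 in the same edgeR test, range 0.00808 to 0.222), at 0.05 under H929 and -0.25 under LP1. CD38 differed by -0.27 (adjusted p = 0.0437 in edgeR, range 0.000594 to 0.157), at -0.21 under H929 and 0.09 under LP1. The call of ETV5 was lost in 7 of 18 fits that left out 1 library (0.29 to 0.37), with these adjusted p from edgeR without H929 SCR A (0.0569), H929 SCR C (0.0926), H929 gN1E C (0.0603), LP1 SCR A (0.0627), LP1 SCR B (0.0965), LP1 gN1E A (0.0892) or LP1 gN1E D (0.0507). The call of CDKN1A was lost in 8 of 18 fits that left out 1 library (0.29 to 0.39), with these adjusted p from edgeR without H929 SCR A (0.132), H929 SCR C (0.127), H929 gN1E B (0.12), H929 gN1E C (0.106), LP1 SCR A (0.164), LP1 SCR B (0.102), LP1 gN1E A (0.0867) or LP1 gN1E D (0.137). The call of CD38 was lost in 12 of 18 fits that left out 1 library (-0.30 to -0.24), with these adjusted p from edgeR without AMO1 gN1E D (0.0573), H929 SCR A (0.0624), H929 SCR B (0.114), H929 SCR C (0.0873), H929 gN1E A (0.104), H929 gN1E B (0.0768), H929 gN1E C (0.0964), LP1 SCR A (0.0884), LP1 SCR B (0.139), LP1 SCR D (0.0563), LP1 gN1E A (0.1) or LP1 gN1E B (0.157). With library size as the only scaling, ETV5 was at 0.22 (adjusted p = 0.245 in edgeR) and CDKN1A at 0.23 (adjusted p = 0.222), neither called, and limma-voom (0.0573) and RLE factors (0.0732) also gave no call of CDKN1A.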

How the results depend on the processing

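Of 70 differences of the 9 oncogenes, 42 kept their direction and their side of the threshold in every alternative. Of 1553 values under alternatives, 1486 kept both, 22 lost the call, 18 gained it and 27 changed sign. The changes of sign concern differences near 0 that were not called, and the cause was not tested.

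With an adjusted p under 0.1 and a fold of 1.5, 176 genes and 0 oncogenes were called in AMO1, 369 and 0 under H929, 102 and 0 under LP1, and 5065 and 4 for H929 minus AMO1 in level. With no filter, 808 genes were called in AMO1, 1629 genes and 4 oncogenes under H929, and 700 genes and 1 oncogene under LP1. DESeq2 called 512 genes and 1 oncogene under LP1, 521 and 1 for AMO1 minus LP1, 383 and 2 for H929 minus LP1, and 5 genes for AMO1 minus H929. Limma-voom called 1 oncogene for AMO1 minus LP1. With library size only, calls split into 309 higher and 295 lower in AMO1 (377 and 96 with TMM), 556 and 743 under H929 (870 and 416), 229 and 130 under LP1 (152 and 180), 69 and 79 for AMO1 minus LP1 (160 and 36) and 83 and 73 for H929 minus LP1 (195 and 36). Level calls then split into 8516 and 11796 for LP1 minus AMO1 and 12092 and 7833 for H929 minus LP1. The median of all genes moved from 0.05 to 0.24 for H929 minus LP1 in level and from 0.03 to -0.08 in response.

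With the replicate letter as a block, AMO1 had 1394 genes called (776 higher and 618 lower) and no call of an oncogene changed there. Libraries with the same letter correlated at -0.04, -0.06 and -0.14 under H929 and at 0.22, -0.02 and -0.08 under LP1. There, the block gave 931 and 243 genes and ended the MAF call under H929 (adjusted p = 0.0907 by edgeR, range 0.00616 to 0.329). For H929 minus LP1 it gave 361 genes and 1 oncogene, MYC.

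Library size only turned CCND2 under H929 to -0.0372, CCND3 for AMO1 minus LP1 to -0.0634, MYC for AMO1 minus LP1 to -0.00265, and, for H929 minus LP1, LETM1 to -0.0739 and MAF to -0.101. MAF was at -0.00994 there with DESeq2 and at -0.0100 with RLE factors. CCND3 for H929 minus AMO1 in level was at 0.0309 in the libraries labelled gN1E only.

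Leaving out 1 library gave 254 to 606 genes in AMO1, 701 to 1272 under H929, and 87 to 780 with 0 to 1 oncogenes under LP1. For AMO1 minus LP1 it gave 122 to 218 genes, for H929 minus LP1 140.0 to 284 with 0 to 2 oncogenes, and for AMO1 minus H929 0 to 5. NEAT1 under LP1 ranged from 2.00 to 2.25, CCND2 under H929 from -0.0168 to 0.0432, FGFR3 under H929 from -0.00362 to 0.13, CCND3 in AMO1 from -0.0895 to 0.00575 and LETM1 in AMO1 from -0.0705 to 0.0352. CCND3 for AMO1 minus LP1 ranged from -0.0342 to 0.0617, and, for H929 minus LP1, FGFR3 from -0.0860 to 0.0399 and MAF from -0.0616 to 0.0886.

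Depth limits FGFR3 (40 counts), MAF (14) and MYCN (1) in AMO1, and MYCN (34) under LP1, where no difference between gapmer labels is given.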

Other observations

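Summed, markers of other cell types stood far below the plasma cell markers under each line label. CD3E in AMO1, however, was at the level of CCND3 there (25.8 TPM each). The 4 B cell markers summed to a median of 0.0455 CPM in AMO1, 0.182 under H929 and 1.42 under LP1, where PAX5 led at 1.07 CPM. The 4 T cell markers summed to 25.6, 8.76 and 13.9 CPM, most of it from CD3E at 21.9, 8.50 and 13.2 CPM, with CD3G at 3.24 CPM in AMO1. The 4 myeloid markers summed to 0.351, 0.301 and 6.53 CPM, with CSF1R at 6.37 CPM under LP1. The 4 fibroblast markers summed to 1.35, 1.24 and 1.09 CPM. The 9 plasma cell markers summed to 17375, 19497 and 11752 CPM, of which SDC1 was at a mean of 10662, 12927 and 1288 CPM. Taken singly, 7 of the 9 were higher and 2 lower in LP1 than in AMO1, where 75.9% of all genes were called. The median log2 difference of the 9 was 0.60, against -0.02 over all genes. The part of all these markers in the differences between line labels was not tested.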
